A study of Homo sapiens with 12 samples.

Results

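The 9 genes described here are HMOX1, FTH1, FTL, GCLM, GCLC, TXNRD1, SRXN1, NQO1 and OSGIN1, which are transcriptional targets of NRF2 or encode the ferritin chains. They were taken by symbol from a table of 75249 genes, and all 9 were among the 29114 genes abundant enough to test. RNA sequencing libraries came from 2 human metastatic melanoma cell lines, with 2 biological replicates in each of 6 groups and 12 libraries in all. The groups were A375 with 6-thio-dG at 5 µM, A375 with BIBR1532 at 25 µM and the A375 control, and the same for LOX-IMVI BR. A375 is an established human melanoma line. The labels do not say what BR stands for, what the control cells received or how long treatment lasted, and they name no genetic change between the groups of a line. BIBR1532 inhibits telomerase, and 6-thio-dG is a nucleoside analog that the same enzyme can add to chromosome ends.

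NRF2, the product of NFE2L2, is a transcription factor that the adaptor KEAP1 marks for degradation in unstressed cells. Oxidants and reactive chemicals that modify KEAP1 let NRF2 accumulate, pair with a small MAF protein and bind antioxidant response elements, which the heme-sensitive repressor BACH1 can occupy in its place. Its targets supply glutathione and reduced thioredoxin, reduce quinones, degrade heme and store iron. The ferritin messages are also held back from translation when iron is low, by iron regulatory proteins that bind a stem-loop in their 5′ ends, so their RNA level and their protein level need not move together.

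The sequences below show the DNA element of the pathway in GCLM and TXNRD1, a related site in OSGIN1, and the RNA element that the ferritin messages share. RefSeq promoters on GRCh38.p14 were at hand for 7 of the 9 members, in 8 promoters that each ran from 250 bases before to 50 bases after a start site. HMOX1 and FTH1 were not among them. The core of the antioxidant response element was searched as TGACNNNGC on both strands, and the related AP-1 site, with which it can overlap, as TGANTCA. The element was in the GCLM promoter on the opposite strand, 34 bases before the start, and in both TXNRD1 promoters, 99 and 102 bases before the start. TXNRD1 promoter 1 held a further match, 8 bases before the start on the opposite strand, which lies outside the stretch printed. The OSGIN1 promoter held the AP-1 letters 97 bases before its start, but no match to the letters of the antioxidant response element. Each window is written 5′ to 3′ in the direction of the gene, and capitals mark the matched letters. GCLM lies on the minus strand at chr1:93909431-93909494, TXNRD1 on the plus strand at chr12:104215650-104215718 and chr12:104286900-104286968, and OSGIN1 on the plus strand at chr16:83953113-83953179.
GCLM: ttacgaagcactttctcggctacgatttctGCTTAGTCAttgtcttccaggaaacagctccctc
TXNRD1 promoter 1: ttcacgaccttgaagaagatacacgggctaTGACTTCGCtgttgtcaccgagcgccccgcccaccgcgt
TXNRD1 promoter 2: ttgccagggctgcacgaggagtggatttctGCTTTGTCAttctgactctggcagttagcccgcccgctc
OSGIN1: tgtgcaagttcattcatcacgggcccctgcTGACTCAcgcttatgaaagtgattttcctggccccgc

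The response element letters occurred in 13.3% of 35116 RefSeq promoters of this length and the AP-1 letters in 7.71%. Neither was present in the windows of GCLC, FTL, NQO1 and SRXN1, which says only that these letters are not in these windows. The iron-responsive elements of the ferritin chains were read from GENCODE release 29 transcripts, from bases 60 to 87 of a 1229-base FTH1 transcript (chromosome 11) and from bases 36 to 63 of an 878-base FTL transcript (chromosome 19). Capitals mark the CAGTG of the loop, and 26 of the 28 bases were identical.
FTH1: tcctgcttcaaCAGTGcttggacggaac
FTL: tcttgcttcaaCAGTGtttggacggaac

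The libraries held 11813388 to 25822381 counts. Replicates lay close together in LOX-IMVI BR, where the median absolute log2 difference per gene was 0.096 to 0.149, and further apart in A375, where it was 0.677 with 6-thio-dG, 0.168 with BIBR1532 and 0.612 in the control. The tests used a biological coefficient of variation shared by all libraries, 25.8%, against 36.3% for A375 alone and 4.50% for LOX-IMVI BR alone, so that the p-values are small for the spread in A375 and large for that in LOX-IMVI BR. The libraries also differed along transcript GC content. In A375 with 6-thio-dG the trend at low GC stood at −1.88 (log2, relative to the other libraries) in replicate 1 and −0.05 in replicate 2. It stood at −1.14 and −0.82 with BIBR1532 and at −0.03 and 0.03 in the A375 control. In LOX-IMVI BR it was 0.43 and 0.40 with 6-thio-dG, 0.89 and 0.92 with BIBR1532 and 0.64 and 0.61 in the control. The A375 comparisons with control and those between the lines therefore also carry a GC difference, which for 6-thio-dG lay in replicate 1. The comparisons within LOX-IMVI BR carry a smaller one, in which the groups did not overlap. Among melanocyte lineage genes, SOX10 had 512 and 590 CPM in the A375 control but 0.502 and 0.683 CPM in the LOX-IMVI BR control, and the pigment enzyme TYR had no counts in either control. The 8 macrophage markers, whose cells also carry much heme oxygenase and ferritin, summed to 735 to 988 CPM in A375 with 6-thio-dG and 175 to 421 CPM in the A375 control, nearly all of it CD68. There the defining leukocyte gene PTPRC had at most 0.167 CPM with 6-thio-dG and 0.181 CPM in the control, and AIF1 and TYROBP had no counts with 6-thio-dG. In LOX-IMVI BR the macrophage sum was 116 to 133 CPM with 6-thio-dG and 93.4 to 93.6 CPM in the control, and PTPRC had 2.33 and 1.35 CPM with 6-thio-dG and 0.151 and 0.137 CPM in the control. The 5 fibroblast markers summed to 22.2 to 23.2 CPM in LOX-IMVI BR with 6-thio-dG, 1438 to 1532 CPM with BIBR1532 and 1677 to 1702 CPM in the control. Most of this was COL1A1, which had 15.0 and 15.9 CPM with 6-thio-dG and 1640 and 1618 CPM in the LOX-IMVI BR control. The melanocyte sum in A375 was 312 to 576 CPM with 6-thio-dG, 1301 to 1464 CPM with BIBR1532 and 572 to 645 CPM in the control. SOX10 made up most of it, with 559 and 284 CPM with 6-thio-dG and 1412 and 1248 CPM with BIBR1532. S100B had 38.9 and 38.7 CPM with BIBR1532 and 12.7 and 18.3 CPM in the A375 control. MITF went the other way, with 6.46 and 9.65 CPM with BIBR1532 and 45.6 and 34.5 CPM in the A375 control. With 6-thio-dG MITF had 2.92 and 14.2 CPM there. The part of these differences in the results was not tested. In bulk RNA, fewer cells that express a gene and less of its RNA per cell cannot be told apart.

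With 6-thio-dG, 6 of the 9 genes rose in A375, where 9.86% of all tested genes rose and 8.21% fell (18.1% called), and 3 of 9 rose in LOX-IMVI BR, where 9.81% rose and 7.16% fell (17% called). With BIBR1532, 1 of 9 rose in A375, where 8.49% of all tested genes rose and 7.29% fell (15.8% called), and 1 of 9 rose in LOX-IMVI BR, where 2.9% rose and 0.69% fell (3.59% called). No member was called lower than control in either line with either compound. The median log2 fold change of the 9 genes was 1.35 and 0.61 with 6-thio-dG in A375 and LOX-IMVI BR, against 0.03 and 0.05 over all genes, and 0.27 and 0.17 with BIBR1532, against −0.04 and 0.04. A gene was called at an edgeR adjusted p under 0.05 over all genes, and since the labels do not say whether replicates were separate cultures, the p-values measure only the spread between these samples, which may be technical. The share of higher genes among those called depended on the scaling. With upper-quartile factors it was 80.0% in place of 54.6% for 6-thio-dG in A375, 73.5% in place of 57.8% for 6-thio-dG in LOX-IMVI BR and 66.4% in place of 53.8% for BIBR1532 in A375, as the median of all genes moved up by 0.40, 0.23 and 0.21.

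**Figure D1:**
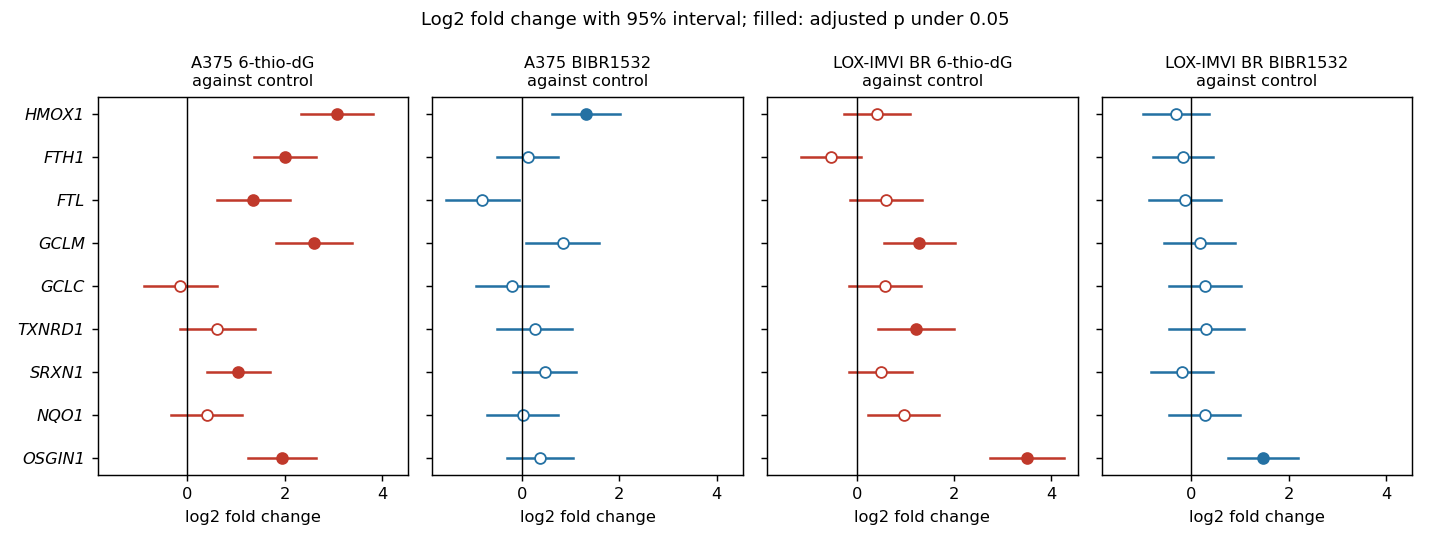
Log2 fold change of the 9 genes for each compound against control in each line, from the edgeR fit, with bars for the 95% interval and filled points for an adjusted p under 0.05. In A375 with 6-thio-dG 6 points are filled, from SRXN1 at 1.05 to HMOX1 at 3.07, and in LOX-IMVI BR with 6-thio-dG OSGIN1 stands farthest out at 3.50.

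HMOX1, FTH1 and FTL rose in A375 with 6-thio-dG. HMOX1, heme oxygenase, which opens heme and frees its iron, had 91.8 and 79.4 CPM in A375 with 6-thio-dG, 26.3 and 24.6 CPM with BIBR1532, and 7.07 and 13.6 CPM in the control. CPM, a gene's counts scaled to a common library size, used TMM-scaled library totals. All 4 treated libraries lay above both controls, and the 6-thio-dG libraries above those with BIBR1532. HMOX1 rose by 3.07 ± 0.35 (log2 fold change ± SE) with 6-thio-dG, 8.37-fold, with an edgeR adjusted p of 0.00011, and by 1.32 ± 0.33, 2.49-fold, with BIBR1532 (edgeR adjusted p = 0.0169). The rise with 6-thio-dG was called under all 11 alternatives of processing and left-out libraries. That with BIBR1532 was not called when either BIBR1532 library was left out, where fewer of all tested genes were called as well.

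In LOX-IMVI BR the HMOX1 level was 43.2 and 41.3 CPM with 6-thio-dG, 23.5 and 27.3 CPM with BIBR1532, and 32.9 and 30.4 CPM in the control. The 6-thio-dG libraries lay just above the controls and the BIBR1532 libraries just below, with no overlap. Neither difference was called: the log2 fold change was 0.42 with 6-thio-dG (95% interval −0.26 to 1.09) and −0.32 with BIBR1532 (−0.997 to 0.36). Both LOX-IMVI BR control libraries lay above both A375 libraries with BIBR1532.

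FTH1 encodes the heavy chain of ferritin, which oxidizes iron for storage. It had 3136 and 1772 CPM in A375 with 6-thio-dG, 709 and 614 CPM with BIBR1532, and 574 and 649 CPM in the control. Only the 6-thio-dG libraries stood above the rest, and they lay far apart from each other. The rise was 2.01 ± 0.30 on the log2 scale, 4.02-fold (edgeR adjusted p = 0.000783), and the difference with BIBR1532 was 0.11 ± 0.29 (adjusted p = 0.821). In LOX-IMVI BR FTH1 had 1315 and 1271 CPM with 6-thio-dG, 1764 and 1567 CPM with BIBR1532, and 1913 and 1822 CPM in the control. Both treated groups lay below the control without overlap, by −0.53 ± 0.29 and −0.16 ± 0.29 on the log2 scale. Neither was called with the shared spread (edgeR adjusted p = 0.245 and 0.875).

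FTL, the light chain of ferritin, which aids the mineralization of iron, had 3853 and 2597 CPM in A375 with 6-thio-dG, 771 and 671 CPM with BIBR1532, and 755 and 1775 CPM in the control. The control libraries differed more than 2-fold, and 1 of the BIBR1532 libraries lay within their range. FTL rose by 1.35 ± 0.35 with 6-thio-dG, 2.55-fold (edgeR adjusted p = 0.0173), but the call was lost without 6-thio-dG replicate 1. With BIBR1532 the log2 difference was −0.81 ± 0.35 (adjusted p = 0.122), and FTL was called lower without control replicate 1, without the low-count filter and after removal of the GC trend. In LOX-IMVI BR FTL had 6194 and 6184 CPM with 6-thio-dG, 3649 and 3758 CPM with BIBR1532, and 4129 and 3994 CPM in the control. The 6-thio-dG libraries were the highest of the series for this gene, yet the difference of 0.61 ± 0.35 was not called (edgeR adjusted p = 0.265).

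Together the ferritin genes took 0.708% and 0.535% of all counts in A375 with 6-thio-dG, 0.152% and 0.136% with BIBR1532, and 0.138% and 0.181% in the control. In LOX-IMVI BR the shares were 0.894% and 0.871% with 6-thio-dG, 0.505% and 0.493% with BIBR1532, and 0.530% and 0.521% in the control. Ferritin thus filled a larger share in both 6-thio-dG groups than in any other group of the same line. These are shares of raw counts, and in TMM-scaled CPM the gap in LOX-IMVI BR was smaller. There the ferritin genes had 7510 and 7455 CPM with 6-thio-dG and 6042 and 5816 CPM in the control. In A375 they had 6989 and 4369 CPM with 6-thio-dG and 1328 and 2424 CPM in the control. The chains did not move in step in LOX-IMVI BR, where the FTL to FTH1 ratio of raw counts was 4.71 and 4.87 with 6-thio-dG, 2.07 and 2.40 with BIBR1532, and 2.16 and 2.19 in the control. In A375 it was 1.23 and 1.47, 1.09 and 1.09, and 1.32 and 2.74 for the same groups. An exact permutation test of 2 libraries against 2 cannot go below p = 0.333, the value reached for 6-thio-dG in LOX-IMVI BR and for BIBR1532 in A375 (2-sided). Processed copies of both ferritin genes are found elsewhere in the genome and resemble them closely, so the split of reads between gene and copy is uncertain, and the library kit kept no strand.

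**Figure D2:**
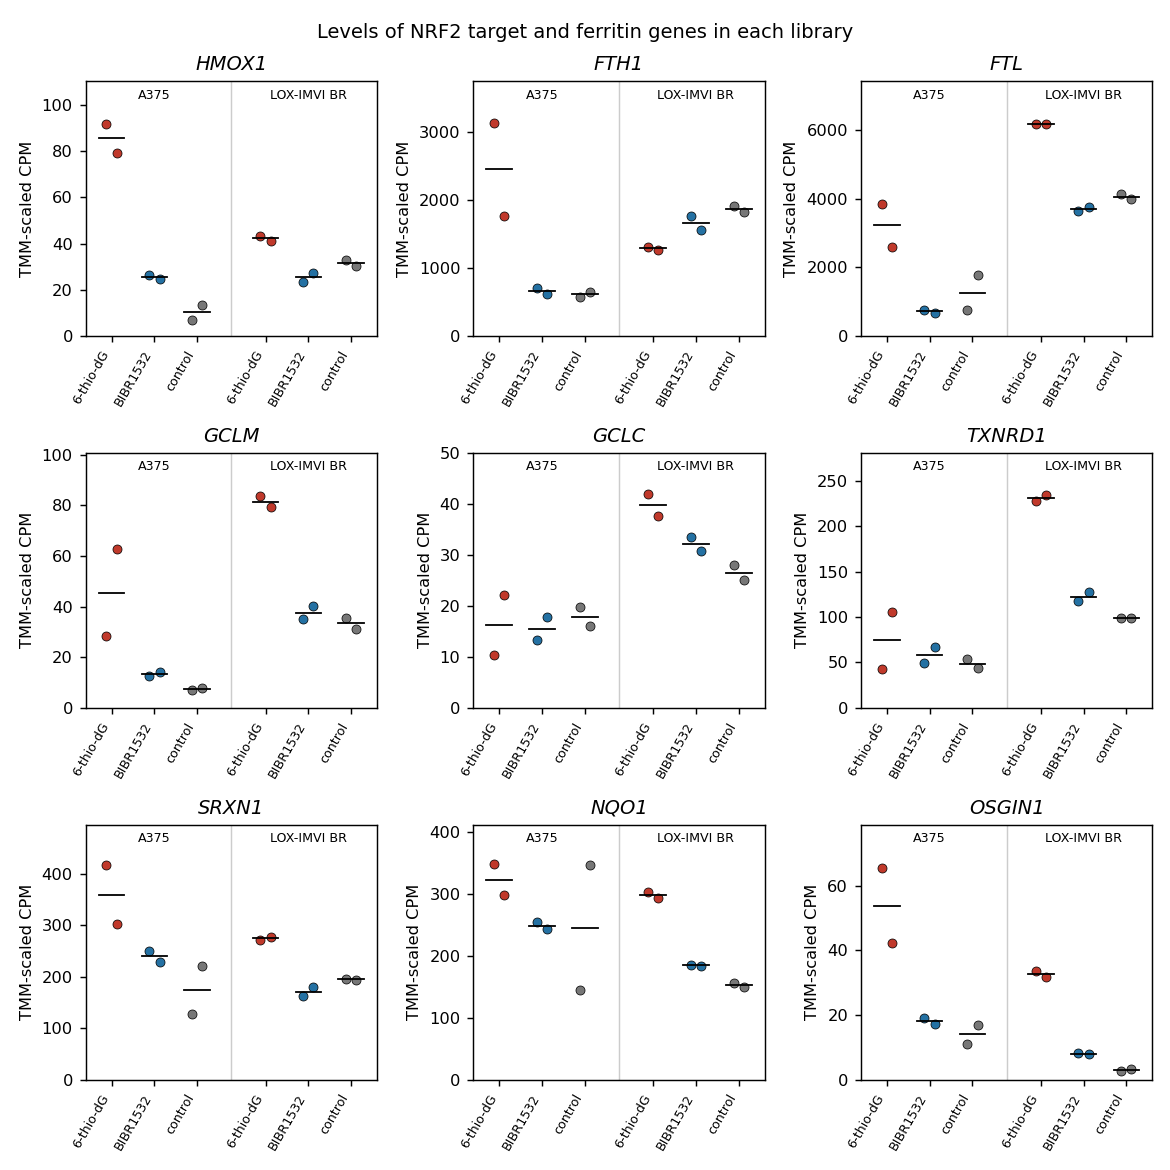
TMM-scaled CPM of each gene (vertical axis, starting at 0) in each of the 12 libraries, by line and treatment, with a horizontal line at the mean of 2 libraries. The mean of HMOX1 and of FTH1 is highest in A375 with 6-thio-dG, though FTH1 in replicate 2 there (1772 CPM) lies below both LOX-IMVI BR controls, and the mean of FTL, GCLM, GCLC and TXNRD1 is highest in LOX-IMVI BR with 6-thio-dG.

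Glutathione synthesis begins with glutamate-cysteine ligase, whose catalytic subunit is GCLC and whose modifier subunit, GCLM, makes the enzyme more efficient. GCLM had 28.5 and 62.6 CPM in A375 with 6-thio-dG, 12.7 and 14.2 CPM with BIBR1532, and 7.10 and 7.97 CPM in the control. The 3 groups did not overlap. GCLM rose by 2.60 ± 0.37 with 6-thio-dG, 6.06-fold (edgeR adjusted p = 0.000513), and its difference of 0.84 ± 0.35 with BIBR1532 was not called (adjusted p = 0.116). GCLM is low in GC (37.3%), and after a GC trend was removed from each library the log2 fold changes were 3.51 with 6-thio-dG and 1.86 with BIBR1532, both called (edgeR adjusted p = 1.66e-05 and 0.000501). The BIBR1532 difference was also called with upper-quartile factors.

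In LOX-IMVI BR GCLM had 83.8 and 79.2 CPM with 6-thio-dG, 35.1 and 40.1 CPM with BIBR1532, and 35.5 and 31.2 CPM in the control. The 6-thio-dG libraries stood apart, and the BIBR1532 libraries overlapped the controls. The rise with 6-thio-dG was 1.29 ± 0.34, 2.44-fold (edgeR adjusted p = 0.0184). It was not called when any of the 4 libraries was left out, where fewer of all tested genes were called as well. The log2 fold change was 1.20 to 1.52 under all 11 alternatives.

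GCLC had 10.3 and 22.2 CPM in A375 with 6-thio-dG, 13.2 and 17.9 CPM with BIBR1532, and 19.7 and 16.1 CPM in the control. These ranges overlapped, and the log2 fold changes were −0.14 (95% interval −0.89 to 0.60) with 6-thio-dG and −0.21 (−0.95 to 0.53) with BIBR1532. Without 6-thio-dG replicate 2 GCLC was called lower, at −0.81, where more of all tested genes were called as well. In LOX-IMVI BR GCLC had 42.0 and 37.7 CPM with 6-thio-dG, 33.6 and 30.9 CPM with BIBR1532, and 27.97 and 25.1 CPM in the control, in that order without overlap. The log2 fold changes of 0.59 ± 0.34 and 0.28 ± 0.34 were not called (edgeR adjusted p = 0.283 and 0.782).

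The ratio of GCLM to GCLC counts within a library does not depend on how libraries are scaled. In A375 it was 2.77 and 2.82 with 6-thio-dG, 0.959 and 0.791 with BIBR1532, and 0.360 and 0.494 in the control. In LOX-IMVI BR it was 2.00 and 2.10, 1.04 and 1.297, and 1.27 and 1.24 for the same groups. The 6-thio-dG replicates in A375, which differed more than 2-fold in the level of either subunit, nearly coincided in this ratio. The smallest p the exact permutation test allows, 0.333, was reached in both lines with 6-thio-dG and in A375 with BIBR1532 (2-sided). The subunits differ in GC content (37.3% and 44.3%), so the ratio is not free of the GC trend.

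**Figure D3:**
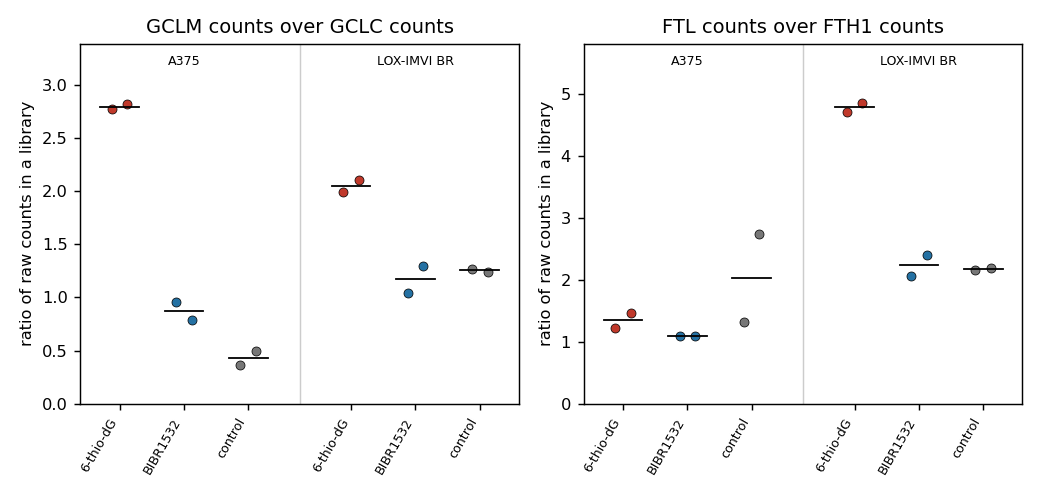
Ratio of raw counts within each library, GCLM over GCLC on the left and FTL over FTH1 on the right, by line and treatment, with a horizontal line at the mean of 2 libraries. The GCLM to GCLC ratio is highest with 6-thio-dG in both lines, at 2.77 and 2.82 in A375, and the FTL to FTH1 ratio is highest with 6-thio-dG in LOX-IMVI BR, at 4.71 and 4.87.

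Among the enzymes that pass electrons to peroxides and quinones, TXNRD1, the cytosolic thioredoxin reductase, had 42.9 and 106 CPM in A375 with 6-thio-dG, 49.7 and 67.2 CPM with BIBR1532, and 53.8 and 43.5 CPM in the control. The groups overlapped and neither difference was called, with log2 fold changes of 0.61 ± 0.36 and 0.27 ± 0.36 (edgeR adjusted p = 0.251 and 0.653). After removal of the GC trend the 6-thio-dG difference was called, at 0.96 (edgeR adjusted p = 0.0079), and it was also called without 6-thio-dG replicate 1, at 1.12, while without replicate 2 it stood at −0.18. In LOX-IMVI BR TXNRD1 had 228 and 235 CPM with 6-thio-dG, 117 and 128 CPM with BIBR1532, and 99.3 and 98.7 CPM in the control. The 6-thio-dG libraries were far above the others, a rise of 1.22 ± 0.36 or 2.34-fold (edgeR adjusted p = 0.0315). As with GCLM, this call was lost when any of the 4 libraries was left out, where fewer of all tested genes were called as well. The log2 fold change was 1.20 to 1.46 under all 11 alternatives.

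SRXN1, sulfiredoxin, which restores overoxidized peroxiredoxins, had 416 and 302 CPM in A375 with 6-thio-dG, 249 and 229 CPM with BIBR1532, and 127 and 220 CPM in the control. The groups kept that order without overlap, but the control libraries were far apart. The rise with 6-thio-dG was 1.05 ± 0.30, 2.07-fold (edgeR adjusted p = 0.0287), and the call was lost under 5 of 11 alternatives, among them leaving out control replicate 1 or 6-thio-dG replicate 1. In LOX-IMVI BR SRXN1 had 271 and 278 CPM with 6-thio-dG, 161 and 180 CPM with BIBR1532, and 196 and 193 CPM in the control. Neither difference was called there, at 0.50 ± 0.30 and −0.19 ± 0.30 on the log2 scale (edgeR adjusted p = 0.304 and 0.856). In A375 with BIBR1532 the difference of 0.46 ± 0.30 was called only without control replicate 2, at 0.91.

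NQO1, the quinone reductase often used as a readout of NRF2, had 348 and 298 CPM in A375 with 6-thio-dG, 254 and 242 CPM with BIBR1532, and 144 and 346 CPM in the control. The control libraries spanned nearly the whole range of the line. Its log2 fold changes were 0.40 ± 0.34 and 0.02 ± 0.34 (edgeR adjusted p = 0.436 and 0.986), and without control replicate 2 they were called at 1.16 and 0.78, while without control replicate 1 they stood at −0.10 and −0.48. In LOX-IMVI BR NQO1 had 302 and 293 CPM with 6-thio-dG, 185 and 184 CPM with BIBR1532, and 156 and 149 CPM in the control. The 3 groups did not overlap, and the 6-thio-dG difference of 0.96 ± 0.34, 1.95-fold, missed the threshold (edgeR adjusted p = 0.0681). It was called under 4 alternatives, among them upper-quartile factors and removal of the GC trend.

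OSGIN1, a stress-induced growth inhibitor, had 65.5 and 42.2 CPM in A375 with 6-thio-dG, 18.9 and 17.3 CPM with BIBR1532, and 10.95 and 17.02 CPM in the control. Only 6-thio-dG set it well apart, a rise of 1.95 ± 0.33 or 3.87-fold (edgeR adjusted p = 0.00153), against 0.38 ± 0.32 with BIBR1532 (adjusted p = 0.44). In LOX-IMVI BR it had 33.6 and 31.6 CPM with 6-thio-dG, 8.22 and 7.86 CPM with BIBR1532, and 2.61 and 3.14 CPM in the control. All 3 groups were separate and the replicates close. OSGIN1 rose by 3.50 ± 0.35 with 6-thio-dG, 11.3-fold (edgeR adjusted p = 2.41e-05), which was called under all 11 alternatives. The rise with BIBR1532 was 1.48 ± 0.34, 2.79-fold (edgeR adjusted p = 0.0233). Its call was lost when any of the 4 libraries was left out, with upper-quartile factors and with a replicate block. The log2 fold change was 1.35 to 1.62 under all 11 alternatives.

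How many genes were called depended on which libraries entered the filter and the fit. Fewer of all tested genes were called when any library of a comparison within LOX-IMVI BR was left out. The same held in A375 for a BIBR1532 library in the comparisons of that compound. Lost calls in those fits were thus not limited to the genes named here. More of all tested genes were called for 6-thio-dG in A375 without 6-thio-dG replicate 2. With the libraries of a comparison filtered and fitted alone, HMOX1 and GCLM were the members called for 6-thio-dG in A375, where 4.8% of 21311 genes were called. With the LOX-IMVI BR 6-thio-dG and control libraries alone all 9 genes were called, 8 higher and FTH1 lower (log2 fold change −0.53, edgeR adjusted p = 1.18e-19), but so were 68% of all 23332 genes in that fit. For BIBR1532 there 8 were called, 4 higher and 4 lower, where 48.6% of 20824 genes were.

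The compounds were also compared directly within each line, at the doses given. In A375 5 of the 9 genes were higher with 6-thio-dG than with BIBR1532, where 7.26% of all tested genes were higher and 8.76% lower (16% called). The log2 differences were 2.16 for FTL, 1.89 for FTH1, 1.76 for GCLM, 1.75 for HMOX1 and 1.57 for OSGIN1, with edgeR adjusted p from 0.000765 to 0.00419. FTL and FTH1 stayed called under all 11 alternatives. HMOX1 was not called without BIBR1532 replicate 2, and GCLM and OSGIN1 without either BIBR1532 replicate or with the 2 groups fitted alone. The 4 others differed by 0.06 to 0.59 and were not called. In LOX-IMVI BR 2 of 9 were higher with 6-thio-dG, OSGIN1 by 2.02 ± 0.33 and GCLM by 1.12 ± 0.34, where 9.9% of all tested genes were higher and 10.7% lower (20.6% called; edgeR adjusted p = 0.000653 and 0.0316). GCLM was not called there when any of the 4 libraries was left out. With upper-quartile factors 6 of the 9 were called there, where 22.7% of all tested genes were. For FTH1 the difference was −0.37, with a 95% interval from −0.98 to 0.25. The share of higher genes among all called was 60.1% with upper-quartile factors and 36.6% with DESeq2 size factors in place of 45.3% in A375, and 69.5% with upper-quartile factors in place of 48.0% in LOX-IMVI BR.

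The lines differed in how 6-thio-dG acted on 2 of the 9 genes. The log2 fold change in LOX-IMVI BR minus that in A375 was −2.54 ± 0.42 for FTH1 and −2.65 ± 0.46 for HMOX1 (edgeR adjusted p = 0.0027 and 0.00394), where 3.06% of all tested genes had a lower effect in LOX-IMVI BR and 2.48% a higher one (5.54% called). FTH1 kept this call under all 15 alternatives, and HMOX1 under all but the fit of the 4 groups alone (edgeR adjusted p = 0.057). OSGIN1 had a difference of 1.55 ± 0.46 the other way that was not called (adjusted p = 0.0628), though it was under 6 of the 15 alternatives, among them leaving out A375 control replicate 1 or either A375 6-thio-dG replicate. GCLM differed by −1.31 ± 0.49 (adjusted p = 0.14) and was called after removal of the GC trend, at −2.01, and without A375 6-thio-dG replicate 1, at −1.77 (edgeR adjusted p = 0.00174 and 0.00302). Leaving out 1 A375 library also brought calls for FTL, at −1.49 without control replicate 2, for NQO1, at 1.07 without control replicate 1, and for GCLC and TXNRD1, at 1.396 and 1.41 without 6-thio-dG replicate 2. In each of those fits more of all tested genes were called than with all libraries, so the added calls were not limited to these members. For BIBR1532 edgeR called 0 of the 9 differences, with 2 at an unadjusted p under 0.05, and DESeq2 called 1, where edgeR called 3.64% of all tested genes (2.09% higher and 1.55% lower). HMOX1 had the smallest p, at −1.63 ± 0.46 (edgeR adjusted p = 0.0603), and was called under 7 of 15 alternatives, among them leaving out either A375 control library. FTL was called without A375 control replicate 1, at 1.17, where more of all tested genes were called as well.

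The control groups of the lines also differed. The LOX-IMVI BR control exceeded the A375 control in 5 genes and fell below it in 1, where 21.1% of all tested genes were higher and 28.8% lower (49.8% called). GCLM was higher by 2.15 ± 0.36, FTL by 1.68 ± 0.35, HMOX1 by 1.63 ± 0.33, FTH1 by 1.61 ± 0.30 and TXNRD1 by 1.02 ± 0.36 on the log2 scale, and OSGIN1 was lower by −2.27 ± 0.34. The edgeR adjusted p ranged from 7.24e-05 for OSGIN1 to 0.0297 for TXNRD1. Those genes kept their call under all 11 alternatives except TXNRD1, which was not called without A375 control replicate 2 or without either LOX-IMVI BR control replicate. NQO1 was called lower without A375 control replicate 1, at −1.18, and SRXN1 and GCLC were called higher after removal of the GC trend, at 1.05 and 0.68. A line's control level and its response share the same control libraries, so the 2 are not independent.

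The raw-count ratios above were not corrected for transcript length, and they compare groups rather than the levels of the genes. Levels of different genes were otherwise set side by side only per kilobase of the longest coding transcript. On that scale FTL was first and FTH1 second in all 6 groups, for instance 3673 ± 1012 and 1997 ± 785 CPM per kilobase in A375 with 6-thio-dG (SD, n = 2). SRXN1 and NQO1 followed in every group, at 133 ± 29.8 and 111 ± 12.1 CPM per kilobase there, a difference within their spread. HMOX1 had rank 5 in A375 with 6-thio-dG at 47.0 ± 4.81 CPM per kilobase and rank 7 in the A375 control at 5.67 ± 2.53, where TXNRD1 (11.4 ± 1.71) stood above it, and OSGIN1 (5.85 ± 1.79) and GCLC (4.70 ± 0.67) lay within its spread. GCLM was last in the A375 control at 1.55 ± 0.13 and OSGIN1 last in the LOX-IMVI BR control at 1.20 ± 0.16.

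Among 11339 symbol-named genes, the profiles nearest to 4 of the members were sought over the 12 libraries by the root mean square difference of log2 CPM, each gene centred within each line. HMOX1 was nearest to PSMB6 (0.37), PRDX1 (0.37) and SLC6A6 (0.38). GCLM was nearest to LY96 (0.28), NHLH1 (0.39) and MAP6D1 (0.39). LY96, NHLH1 and MAP6D1 passed the filter only through a 6-thio-dG group, with means of 9.30 CPM (LOX-IMVI BR), 8.55 CPM and 6.02 CPM (A375). Their likeness to GCLM is therefore not independent of the filter, and LY96 had only 10 and 3 counts in the A375 control. FTH1 was nearest to KIAA0930 (0.26), TMEM173 (0.29) and TREX1 (0.30). NQO1 was nearest to YBEY (0.13), ALDH4A1 (0.14) and WDR83 (0.15). Like NQO1, these were lower in A375 control replicate 1 than in replicate 2, at 20.6 and 48.2 CPM for ALDH4A1. The distance includes that difference between replicates. The member nearest to HMOX1 was GCLM, at rank 15, and the member nearest to FTH1 was FTL, only at rank 288.

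Of the 11 regulators of NRF2, 10 were tested. With 6-thio-dG in A375 2 rose and 1 fell, where 9.86% of all tested genes rose and 8.21% fell, with a median log2 fold change of −0.61 against 0.03 over all genes. KEAP1 had 330 and 221 CPM with 6-thio-dG and 74.6 and 145 CPM in the A375 control, a rise of 1.33 ± 0.34 (edgeR adjusted p = 0.0158). SQSTM1, an autophagy adaptor that binds KEAP1, rose by 1.38 ± 0.34 (edgeR adjusted p = 0.0145). Both calls were lost without 6-thio-dG replicate 1. NFE2L2 had 18.2 and 100 CPM with 6-thio-dG and 80.0 and 98.7 CPM in the control, and BACH1 4.01 and 35.2 CPM with 6-thio-dG and 43.6 and 51.1 CPM in the control. The 6-thio-dG replicates of both genes lay several-fold apart, and neither was called (edgeR adjusted p = 0.438 and 0.159). Without 6-thio-dG replicate 2 both were called lower, NFE2L2 at −2.29 and BACH1 at −3.56, and BACH1 was also called lower without the low-count filter and with the replicate block. In LOX-IMVI BR edgeR and DESeq2 each called 0 regulators with 6-thio-dG, with 4 at an unadjusted edgeR p under 0.05, where edgeR called 17% of all tested genes. MAFF, a small MAF protein, rose by 1.51 ± 0.36 there with BIBR1532 (edgeR adjusted p = 0.0309), and fell by 1.09 ± 0.36 in A375 with 6-thio-dG (adjusted p = 0.048). The rise was lost when any of the 4 libraries was left out, and the fall without control replicate 2 or 6-thio-dG replicate 2.

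Of 22 genes of NADPH supply and other NRF2 targets, 21 were tested. In A375 8 rose and 2 fell with 6-thio-dG and 4 rose and 1 fell with BIBR1532, where 9.86% and 8.49% of all tested genes rose and 8.21% and 7.29% fell. The median log2 fold changes were 0.77 and 0.37, against 0.03 and −0.04 over all genes. AKR1B10, an aldo-keto reductase, had 2.76 and 2.69 CPM with 6-thio-dG, 2.83 and 3.68 CPM with BIBR1532, and 0.07 and 0.27 CPM in the control. It stayed low but rose by 4.25 ± 0.56 and 4.51 ± 0.54 (edgeR adjusted p = 0.000411 and 0.000149), called under all alternatives. PIR, an iron-binding protein, rose by 2.10 ± 0.36 and 1.54 ± 0.36, and AKR1C3, whose close paralogs can share reads with it, by 2.31 ± 0.40 and 1.80 ± 0.40. The BIBR1532 calls of PIR and AKR1C3 were lost without either BIBR1532 library. SLC7A11, the cystine carrier that feeds glutathione synthesis, went the other way, at 5.18 and 28.6 CPM with 6-thio-dG, 12.4 and 14.4 CPM with BIBR1532, and 51.7 and 51.4 CPM in the control. It fell by 1.60 ± 0.51 and by 1.95 ± 0.51 (edgeR adjusted p = 0.0426 and 0.0222), and both calls were lost without either A375 control library, the second also without either BIBR1532 library. The 6-thio-dG value was −0.85 without 6-thio-dG replicate 1 and −3.31 without replicate 2. In LOX-IMVI BR 3 of the 21 rose and 3 fell with 6-thio-dG, where 9.81% of all tested genes rose and 7.16% fell. With BIBR1532 there edgeR called 0, with 5 at an unadjusted p under 0.05, and DESeq2 1, where edgeR called 3.59% of all tested genes. SLC7A11 had log2 fold changes of 0.84 ± 0.49 and 0.82 ± 0.49 there that were not called.

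Of 17 genes of glutathione synthesis and use, SLC7A11 counted again among them, 1 rose and 2 fell in A375 with 6-thio-dG, and 2 rose and 1 fell with BIBR1532, where 18.1% and 15.8% of all tested genes were called. In LOX-IMVI BR 2 rose and 1 fell with 6-thio-dG, and 2 rose with BIBR1532, where 17% and 3.59% were called. The counts in A375 and with 6-thio-dG in LOX-IMVI BR were near these shares. SLC3A2, the partner chain of SLC7A11, had 1353 and 1323 CPM in LOX-IMVI BR with 6-thio-dG, 622 and 529 CPM with BIBR1532, and 192 and 188 CPM in the control. It rose by 2.82 ± 0.35 with 6-thio-dG, called under all alternatives, and by 1.60 ± 0.33 with BIBR1532 (edgeR adjusted p = 0.000122 and 0.0132), the second lost when any of the 4 libraries was left out. CHAC1, which degrades glutathione, rose by 4.14 ± 0.38 in LOX-IMVI BR with BIBR1532 (edgeR adjusted p = 4.4e-05), called under all alternatives. It fell by 1.38 ± 0.34 in A375 with 6-thio-dG (edgeR adjusted p = 0.0124), a call lost without control replicate 2.

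Of 14 thioredoxin and peroxiredoxin genes, 2 rose and 4 fell in A375 with 6-thio-dG, 1 rose and 1 fell there with BIBR1532, 2 rose and 2 fell in LOX-IMVI BR with 6-thio-dG and 1 rose with BIBR1532. The shares of all tested genes called were 18.1%, 15.8%, 17% and 3.59% in the same order, and the count with BIBR1532 in A375 was near its share. PRDX1, a cytosolic peroxiredoxin, rose by 1.83 ± 0.31 in A375 with 6-thio-dG (edgeR adjusted p = 0.00162). TXNRD2, the mitochondrial counterpart of TXNRD1, had 47.3 and 32.8 CPM with 6-thio-dG, 50.5 and 53.2 CPM with BIBR1532, and 135 and 324 CPM in the A375 control. It fell by 2.52 ± 0.38 and by 2.15 ± 0.38 (edgeR adjusted p = 0.000829 and 0.00215), called under all alternatives.

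Of 16 genes of iron import, export and control outside ferritin, 15 were tested. With 6-thio-dG 3 fell in A375 and 7 in LOX-IMVI BR, where 8.21% and 7.16% of all tested genes fell, and 0 rose, where 9.86% and 9.81% did. With BIBR1532 edgeR called 0 in either line, with 5 in A375 and 4 in LOX-IMVI BR at an unadjusted p under 0.05, and DESeq2 1 in each. Of all tested genes edgeR called 15.8% in A375 and 3.59% in LOX-IMVI BR with that compound. The median log2 fold changes with 6-thio-dG were −0.43 and −0.89, against 0.03 and 0.05 over all genes. In LOX-IMVI BR the endosomal iron reductase STEAP3 had 100 and 102 CPM with 6-thio-dG and 359 and 354 CPM in the control, a fall of 1.81 ± 0.31 (edgeR adjusted p = 0.0012). HFE, a partner of the transferrin receptor, fell by 1.66 ± 0.31, SLC25A37, the mitochondrial iron importer, by 1.74 ± 0.29, and ACO1, which encodes an iron regulatory protein that binds the stem-loop shown above, by 1.24 ± 0.27. TFRC, the transferrin receptor, had 460 and 452 CPM with 6-thio-dG and 1025 and 987 CPM in the LOX-IMVI BR control, a difference of −1.14 ± 0.53 that was not called (edgeR adjusted p = 0.169), though it was with the 2 groups fitted alone or without the low-count filter. SLC40A1, the iron exporter, had at most 0.873 CPM in any library. The ACO1 call was lost when any of the 4 libraries was left out. Of 14 heme genes 12 were tested. In A375 with 6-thio-dG edgeR called 0, with 2 at an unadjusted p under 0.05, and DESeq2 1, where edgeR called 18.1% of all tested genes. Of the same 12, 2 rose in A375 with BIBR1532 and 1 rose in LOX-IMVI BR with 6-thio-dG. Among all tested genes 8.49% and 9.81% rose there (15.8% and 17% called), so these counts were near or below the shares called. The A375 calls, FECH and ALAS1, were lost without either BIBR1532 library. The LOX-IMVI BR call, SLC48A1, was lost when any of the 4 libraries was left out.

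**Figure D4:**
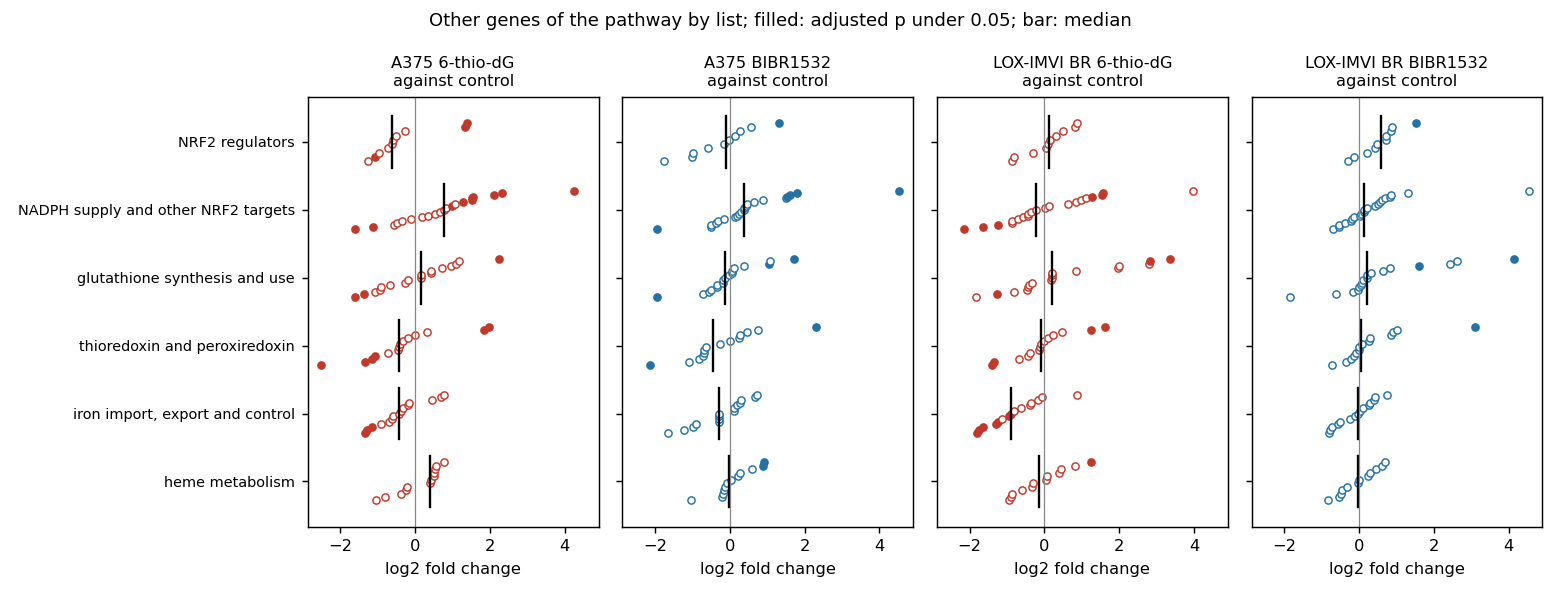
Log2 fold change of each tested gene of the 6 lists (rows) for each compound against control in each line, with a vertical bar at the median and filled points for an edgeR adjusted p under 0.05. The filled points of iron import, export and control all lie left of 0 with 6-thio-dG, 3 in A375 and 7 in LOX-IMVI BR, while NADPH supply and other NRF2 targets has 8 filled points right of 0 in A375.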

How the data were processed

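Counts per gene were the unit of the deposited table, which the authors left unnormalized, as whole numbers for 12 libraries in 75253 rows. Per the labels' protocols, the RNA came from a TRIzol preparation and the library kit does not keep strand. The submitters' processing notes list GATK, Picard, STAR and featureCounts 1.5.1, with hg19 and GRCh37, and their roles are not given in the sources used here. A total of 4 rows with ambiguous date names were dropped (at most 0.000913% of a library).

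The 9 members and the gene lists were chosen with earlier results of these data known. The 29114 genes kept by filterByExpr (14439 symbols, 14675 NONCODE genes) were TMM-scaled and tested with edgeR 4.0.16 in R 4.3.3 (robust quasi-likelihood, 1 mean per line and treatment, 6 residual degrees of freedom, limma 3.58.1). P-values were adjusted by Benjamini-Hochberg over all genes within each of 9 comparisons, and called under 0.05. The steps were also run on simulated counts with the same spread in every gene and library and no GC trend. That run does not cover the unequal spread of the lines. All members were named. Each list gave at most 4 called genes per comparison, by smallest adjusted p, and NFE2L2, KEAP1, BACH1, TFRC, SLC40A1 and SLC7A11 could be named in any case. Alternatives were DESeq2 1.42.0 as test and size factors, upper-quartile factors, no low-count filter, the groups of a comparison alone, a replicate block, removal of a GC trend (a smoothing spline of 6 degrees of freedom per library, over the 14048 symbols with a GENCODE transcript), and leaving out each library. The files' coordinates were not used.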

Additional observations from a re-analysis of the deposited data

Results flagged for a closer look

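The log2 effect of 6-thio-dG differed between the lines for FTH1, by −2.54 (LOX-IMVI BR minus A375, edgeR adjusted p = 0.0027), with effects against control of −0.53 in LOX-IMVI BR and 2.01 in A375. For HMOX1 the difference was −2.65 (edgeR adjusted p = 0.00394), with effects of 0.42 in LOX-IMVI BR and 3.07 in A375. Both genes had a higher control level in LOX-IMVI BR, and the part of that in the difference was not tested.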

How the results depend on the processing

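Of 963 values of the 9 members under an alternative, 114 lay on the other side of the threshold. The number of the 9 members called against control, in the order A375 6-thio-dG, A375 BIBR1532, LOX-IMVI BR 6-thio-dG and LOX-IMVI BR BIBR1532, was 6, 1, 3 and 1. With the groups alone it was 2, 1, 9 and 8, where 4.8%, 16%, 68% and 48.6% of all genes in the fit were called. With the GC trend removed it was 7, 3, 6 and 1, where 34.4%, 34.8%, 29.3% and 11.9% were. With upper-quartile factors it was 6, 2, 4 and 0, where 22.9%, 17.2%, 17.6% and 3.05% were. Without the low-count filter it was 6, 2, 4 and 1, where 11.5%, 10.8%, 10% and 2.66% were. The DESeq2 test gave 6, 1, 3 and 1, where 17.1%, 15.3%, 13.9% and 4.24% were. The replicate block gave 5, 1, 3 and 0, where 15.5%, 14.8%, 13.9% and 2.46% were. Leaving out 1 library gave 5 to 7, 0 to 3, 1 and 0. Between the compounds 5 in A375 and 2 in LOX-IMVI BR became 3 and 9 with the groups alone (6.11% and 66.8% of all genes) and 6 and 7 with the GC trend removed (31.7% and 31.8%). They became 5 and 6 with upper-quartile factors (16.9% and 22.7%) and 5 and 4 without the filter (11% and 12%). Both counts also moved when a library was left out. The line difference in the 6-thio-dG effect, 2 members, became 4 with the GC trend removed (20% of all genes) and 1 with the groups alone (1.3%). That in the BIBR1532 effect, 0, became 3 with the GC trend removed (16.5% of all genes). It became 1 with the DESeq2 test (7.13%), the groups alone (15.9%), no filter (5.15%) or upper-quartile factors (4.14%). Both counts also moved with some of the libraries left out. The control comparison of the lines called 6 members, and 5 to 7 with a library left out. Leaving out 1 library, the A375 difference between 6-thio-dG and BIBR1532 ranged from −1.80 to 1.33 for BACH1, −1.31 to 1.154 for NFE2L2 and −1.37 to 1.10 for SLC7A11, against 0.49, 0.40 and 0.34 with all libraries. The low end came without 6-thio-dG replicate 2 and the high end without replicate 1, and the cause was not tested. The share of higher genes among all called was 38.1% with upper-quartile factors in place of 57.5% for the BIBR1532 line difference. The labels do not say whether replicate numbers pair the samples. The deviations of same-numbered libraries correlated at −0.137 to 0.350 within A375 and −0.004 to 0.029 within LOX-IMVI BR. The 0.350 was between 6-thio-dG and BIBR1532, and with 2 libraries per group these values cannot settle whether numbers mark a shared batch. Intervals cover the fitted spread only, and with 2 libraries per group the precision is limited mainly in A375.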
